A study of Mus musculus with 23 samples.

Results

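The 10 genes described here are contractile and contraction-linked genes of smooth muscle: *Acta2*, *Actg2*, *Myh11*, *Tagln*, *Cnn1*, *Des*, *Lmod1*, *Synpo2*, *Smtn* and *Mylk*. They were picked by gene symbol from the 18512 symbols of each count file, and all 10 were found. The samples were the head of the pancreas of 23 C57BL/6 mice aged 6 to 8 weeks, taken without injury (baseline, 4 females and 4 males), at day 7 (4 females and 4 males) or at day 14 (3 females and 4 males) after caerulein. Caerulein, a cholecystokinin analogue that overstimulates the acinar cells and injures the pancreas, had been given at 50 µg/kg, 8 injections a day for 2 days. RNA of the whole tissue was sequenced, with no sorting of cells, and each mouse gave 1 library. Mice are named here by the numbers in the labels: the baseline mice are 1 to 8, the day 7 mice 9 to 16 and the day 14 mice 17 to 24. Of the last, mouse 20 was not analysed here.

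Smooth muscle cells shorten when myosin filaments slide along actin filaments. Calcium, bound to calmodulin, activates myosin light chain kinase, which phosphorylates the light chains of myosin and starts the contraction. In the pancreas such cells lie mainly in the walls of arteries and veins and around the larger ducts, and some of these genes, *Acta2* foremost, are also used by pericytes and by activated stellate cells, the cells that lay down matrix after injury.

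The members were low in abundance. Total counts per mouse ran from 7059890 to 9567446, of which a member took between 0 and 505. Of the 10 members, 7 had enough counts to be tested, as had 12195 of all symbols, while *Actg2*, *Cnn1* and *Lmod1* had not. Levels per length are given as CPM (counts in each 1000000 of the filtered library total after TMM scaling) per kilobase of exon. *Acta2* had the highest level at baseline (2.00 ± 1.45, SD, n = 8). *Myh11* (1.23 ± 0.717) and *Tagln* (1.20 ± 0.791) came next on this scale. *Smtn* (0.663 ± 0.180), *Des* (0.522 ± 0.413), *Mylk* (0.498 ± 0.229) and *Synpo2* (0.490 ± 0.0934) followed at similar per-length levels. The lowest were *Actg2* (0.143 ± 0.121), *Lmod1* (0.140 ± 0.0772) and *Cnn1* (0.0569 ± 0.0890). Neighbours in this order differed by less than the larger of their SDs between mice, apart from the step from *Synpo2* to *Actg2*. In bulk tissue, fewer cells of a type and less RNA per cell cannot be told apart.

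*Acta2* encodes smooth muscle alpha-actin, the main actin of the thin filament in vascular smooth muscle, and lies on the minus strand at chr19:34241090-34255590 (mm10; GENCODE vM21). Its normalized count (scaled with TMM factors, as for all members below) was 13.6 in the lowest, 28.3 in the median and 102 in the highest baseline mouse. At day 7 these values were 24.4, 42.2 and 272, and at day 14 they were 16.4, 30.2 and 209.7. The ranges of the 3 groups overlapped, and only mice 10 and 15 of the 8 at day 7 stood above every baseline mouse. On the log2 scale *Acta2* differed by 1.16 ± 0.65 (SE) between day 7 and baseline and did not pass the test (edgeR adjusted p = 0.231).

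The boxes shown here are the members' only matches to a loosened CArG box, the motif bound by serum response factor, and are printed because the members varied together between mice. The windows searched, on both strands since the box reads alike on each, were the RefSeq promoters (GRCm38.p6), 300 bases from 250 before to 50 after the start, which were at hand for 7 of the 10 members. The strict box, in which the 6 core bases are all A or T, was in 0 of these 7 promoters and in 1.63% of 32851 promoters of that length. After that search, boxes with at most 1 C or G in the core were sought as well; *Acta2* was the only member with any, and 9.98% of all promoters held one. It held a pair, as did 0.822% of all promoters. The capitals mark the box, which begins 84 bases (chr19:34255438-34255467, minus strand) or 34 bases (chr19:34255388-34255417, minus strand) before the start:
Acta2 distal box: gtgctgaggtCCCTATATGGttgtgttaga
Acta2 proximal box: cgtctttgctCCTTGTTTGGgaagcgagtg
The start meant here is that of the RefSeq promoter, which is not the 5' end of the GENCODE interval of *Acta2* given above. Both boxes lie inside that interval. A match of letters is a description and does not show that a factor binds there.

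*Myh11* is the smooth muscle myosin heavy chain, the motor of the thick filament and the member most restricted to smooth muscle (chr16:14194535-14291372, minus strand). Its normalized counts were 46.9, 68.4 and 192 in the lowest, median and highest mouse at baseline, 38.8, 73.7 and 409 at day 7, and 36.0, 74.8 and 296 at day 14. The medians lay close together while the highest mouse stood far above them in each group. The log2 difference at day 7 was 0.65 ± 0.55 (edgeR adjusted p = 0.442). *Mylk*, the myosin light chain kinase (chr16:34745210-35002420, plus strand), ran from 25.7 through a median of 44.6 to 101 at baseline, from 27.9 through 45.1 to 189.7 at day 7, and from 34.0 through 53.6 to 115 at day 14. It differed by 0.52 ± 0.41 at day 7 (edgeR adjusted p = 0.408). *Actg2*, the enteric gamma-actin of visceral smooth muscle (chr6:83512905-83536265, minus strand), had at most 4 counts in a baseline mouse, and 0 counts in 5 of the 23 mice. Its highest values were 41 counts in mouse 15, 22 in mouse 10 and 19 in mouse 19, and no other mouse exceeded 6.

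*Tagln* (transgelin or SM22-alpha) and *Cnn1* (calponin 1) are related actin-binding proteins, and *Smtn* (smoothelin) binds actin in contractile smooth muscle. *Tagln* (chr9:45929619-45936058, minus strand) had normalized counts of 12.1, 16.3 and 53.5 at baseline, 9.03, 18.4 and 94.1 at day 7, and 8.73, 17 and 81.3 at day 14 in the lowest, median and highest mouse. Here too 2 mice at day 7 lay above every baseline mouse, and 1 lay below them all. The log2 difference was 0.70 ± 0.57 at day 7 (edgeR adjusted p = 0.422). Of its exon length, 67.9% overlaps genes on the opposite strand, among them *Pcsk7*. The kit was stranded, but the strand setting of the counting is not given in the sources used here. *Cnn1* (chr9:22099216-22109630, plus strand) had 0 counts in 5 of 8 baseline mice and at most 4 in the others. Its values in mice 10, 15 and 19 were 26, 36 and 21 counts, against at most 4 in every other injured mouse.

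*Smtn* (chr11:3517523-3540612, minus strand) had overlapping ranges in the 3 groups. Its normalized counts were 15.1, 26.8 and 33.2 at baseline, 15.3, 22.8 and 38.9 at day 7, and 20.1, 28 and 39.7 at day 14. Its log2 difference at day 7 was -0.093 ± 0.20 (edgeR adjusted p = 0.782). Opposite-strand genes overlap 16.3% of its exon length.

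The last 3 members belong to the filament scaffold. *Des*, desmin, forms the intermediate filaments of muscle (chr1:75360329-75368579, plus strand). It ran from 2.81 through a median of 13.4 to 46.0 at baseline, from 8.61 through 12.5 to 73.0 at day 7, and from 7.56 through 12.5 to 43.4 at day 14. The log2 difference at day 7 was 0.40 ± 0.55 (edgeR adjusted p = 0.660). *Synpo2*, synaptopodin 2 or myopodin, binds actin at dense bodies and Z discs (chr3:123076519-123236149, minus strand). It ran from 40.7 through 53.9 to 74.0 at baseline, from 37.3 through 40.1 to 89.2 at day 7, and from 40.7 through 57.0 to 97.0 at day 14. Its pattern at day 7 was split: 2 mice lay above and 4 below every baseline mouse, and the log2 difference was -0.12 ± 0.21 (edgeR adjusted p = 0.736). *Lmod1*, leiomodin 1, nucleates actin filaments in smooth muscle (chr1:135324807-135368065, plus strand). Baseline mice had 2 to 10 counts of it, day 7 mice 0 to 26 and day 14 mice 2 to 15.

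**Figure D1:**
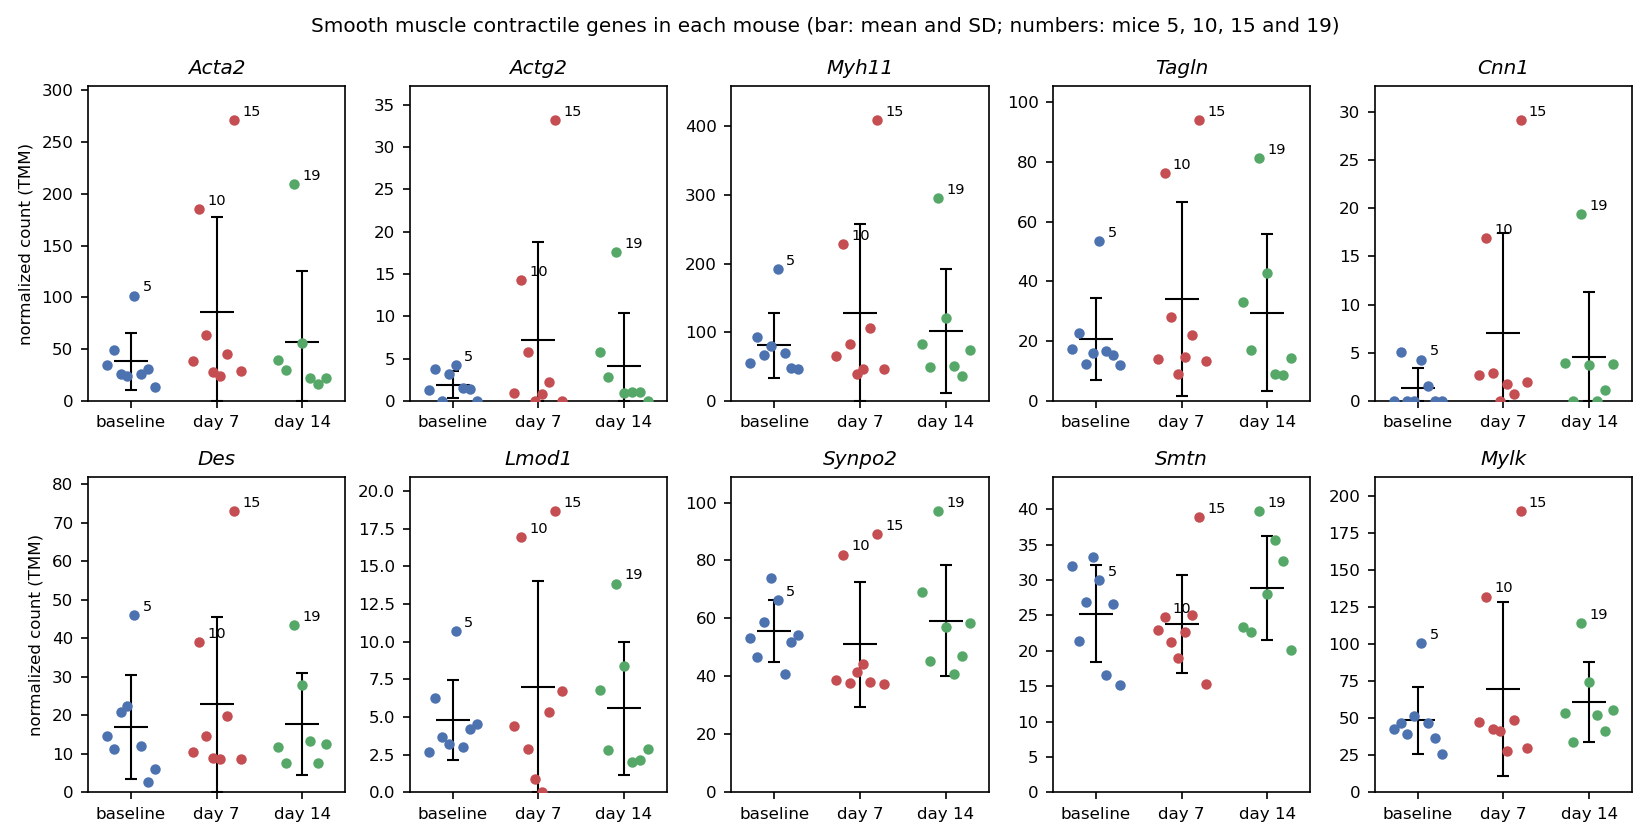
Normalized count (vertical axis, TMM scaling) of each of the 10 members in each mouse at baseline, day 7 and day 14; points are mice, bars are the mean and SD of the group, with the lower bar stopped at 0. Mice 10, 15 and 19 stand above the other mice of their group in 9 of 10 panels, *Smtn* being the exception for mouse 10, and mouse 5 is the highest baseline mouse in 7.

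None of the 7 tested members was called at day 7 against baseline by an adjusted p of at most 0.05 with a fold change of at least 1.5, whereas 5.13% of all genes tested were (626 of 12195; 3.82% higher and 1.31% lower). Of the 7, 5 were higher and 2 lower with a median log2 difference of 0.52, beside 0.022 over all genes; under total count scaling all 7 were higher. An unadjusted p below 0.05 was reached by 0 of 7 members and by 32.2% of all genes. The mean differences rested on few mice. Without mouse 15 the day 7 difference of *Acta2* was 0.42 and that of *Myh11* was 0.03. Without mice 5, 10, 15 and 19, a set chosen after their values were seen, 2 members were higher and 5 lower, with a median of -0.065. In that fit *Synpo2* reached a log2 difference of -0.46 ± 0.14 (edgeR adjusted p = 0.0288), which is short of the fold threshold; its mean was 39.6 ± 2.78 (SD, n = 6) at day 7 against 54.2 ± 10.5 (n = 7) at baseline.

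Scaling and mapping rate bear on these directions. Scaling by total counts moved the median log2 difference of all genes at day 7 from 0.022 to 0.48 and called 3727 genes (3706 higher and 21 lower, beside 466 and 160), *Acta2* (1.66, edgeR adjusted p = 0.0335) and *Mylk* (1.01, adjusted p = 0.0472) among them. On that scale *Synpo2* (0.35) and *Smtn* (0.36) lay below the median gene. The mapping rate was lower in 7 of 8 baseline libraries than in every injured library, mouse 5 being the exception, so the rate and the injury are largely confounded. With the rate as a covariate beside sex, *Acta2* and *Myh11* differed by -0.84 and -1.10 at day 7 (edgeR adjusted p = 0.714 and 0.537).

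At day 14 against baseline 0 of 7 members were called, beside 0.787% of all genes (0.697% higher and 0.0902% lower), and 0 had an unadjusted p below 0.05, beside 13.3%. All 7 differences were above 0 in edgeR with TMM scaling, from 0.023 for *Des* to 0.51 for *Acta2*, with a median of 0.30 (0.0062 over all genes) and a smallest adjusted p of 0.779. Without mouse 19 *Acta2* turned to -0.33 and *Myh11* to -0.30. From day 7 to day 14, 0 of 7 were called, beside 0.377% of all genes (0.205% higher and 0.172% lower). The 7 differences ran from -0.65 for *Acta2* to 0.28 for *Smtn* (median -0.23, smallest edgeR adjusted p = 0.561), and 0 had an unadjusted p below 0.05 beside 14.1% of all genes. *Acta2* without mouse 15 differed by 0.0047 between these days. DESeq2 called 0 members in each of these comparisons.

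**Figure D2:**
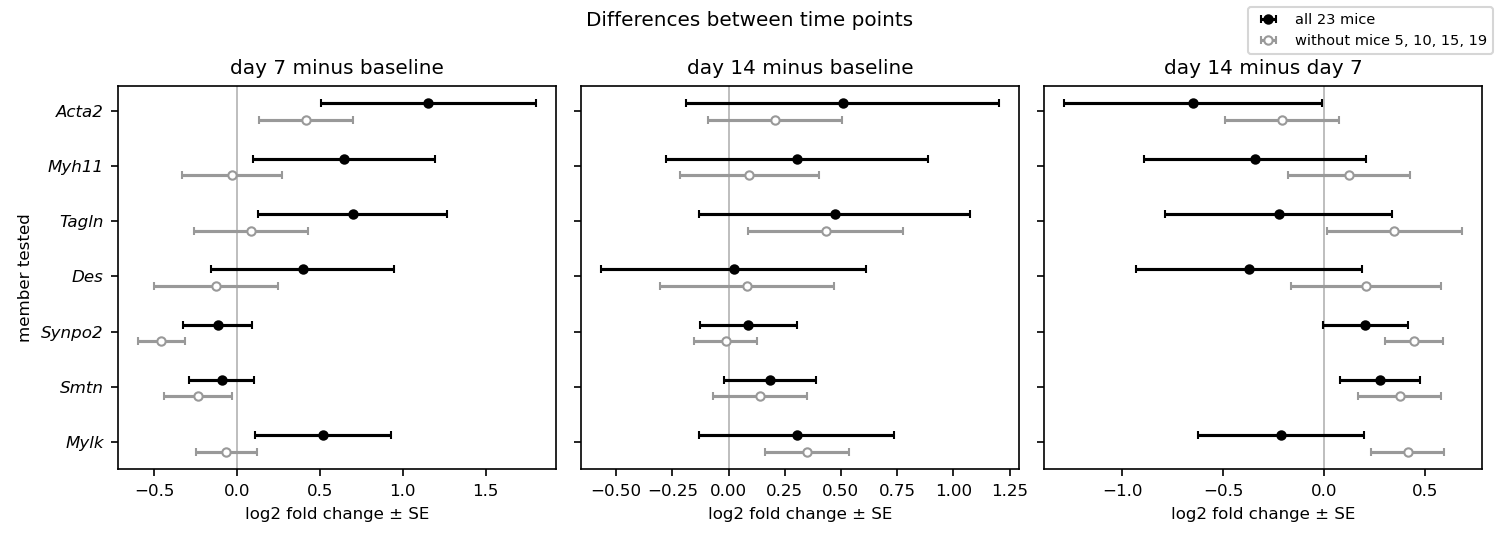
Log2 fold change (horizontal axis) of the 7 tested members with its SE from edgeR, in 3 comparisons of time points, with all 23 mice (filled) and without mice 5, 10, 15 and 19 (open). At day 7 the filled points run from -0.12 to 1.16 and the open ones from -0.46 to 0.42.

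No member passed the test between the sexes. With 12 males and 11 females, 0 of 7 were called, beside 0.23% of all genes (0.0902% higher in males and 0.139% lower), and 0 had an unadjusted p below 0.05, beside 9.0%. The log2 differences, male minus female, ran from -0.29 ± 0.54 for *Acta2* to 0.092 ± 0.46 for *Des* (smallest edgeR adjusted p = 0.875). DESeq2 also called 0 members. Of mice 5, 10, 15 and 19, 5 and 15 were males and 10 and 19 females. All 10 members could be tested for an interaction of sex with time, and 0 passed at day 7 (smallest edgeR adjusted p = 0.947, beside 0.00773% of genes called) or at day 14 (smallest adjusted p = 1.0, with 0 genes called). An unadjusted p below 0.05 was also reached by 0 members for either interaction.

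The members varied widely between mice of the same group. The SD of log2 CPM (prior count 2) within a group had a median over the 7 tested members of 0.63 at baseline, 1.04 at day 7 and 0.84 at day 14. Over all genes tested the medians were 0.23, 0.21 and 0.20. Each of the 7 lay above that median in every group, and 4, 5 and 5 of them lay above the 90th percentile. The genes in this comparison were not matched for abundance. At low counts, as for the members, the SD also holds more counting error. *Acta2* had a coefficient of variation of 72.6% at baseline, 107% at day 7 and 121% at day 14, where counting error alone gives 18.5%, 9.95% and 13.1%. For *Myh11* the coefficients were 58.3%, 101% and 88.8%, beside counting errors of 12.6%, 8.15% and 9.81%. *Smtn*, at 27.2%, 29.2% and 25.4%, was not far above its counting error of 22.7%, 18.9% and 18.4%. *Synpo2* varied by 19% at baseline, near its counting error of 15.3%, and by 42.1% and 32.5% after injury. The SD of log2 CPM of *Acta2* went from 0.81 to 0.53 at baseline without mouse 5 and from 1.19 to 0.60 at day 14 without mouse 19. Leaving out the same mice moved that of *Myh11* to 0.36 and 0.61. The SD of *Synpo2* at day 7 went from 0.50 to 0.092 without mice 5, 10, 15 and 19, below the median of all genes in that fit (0.19), and at day 14 from 0.41 to 0.27 without mouse 19.

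**Figure D3:**
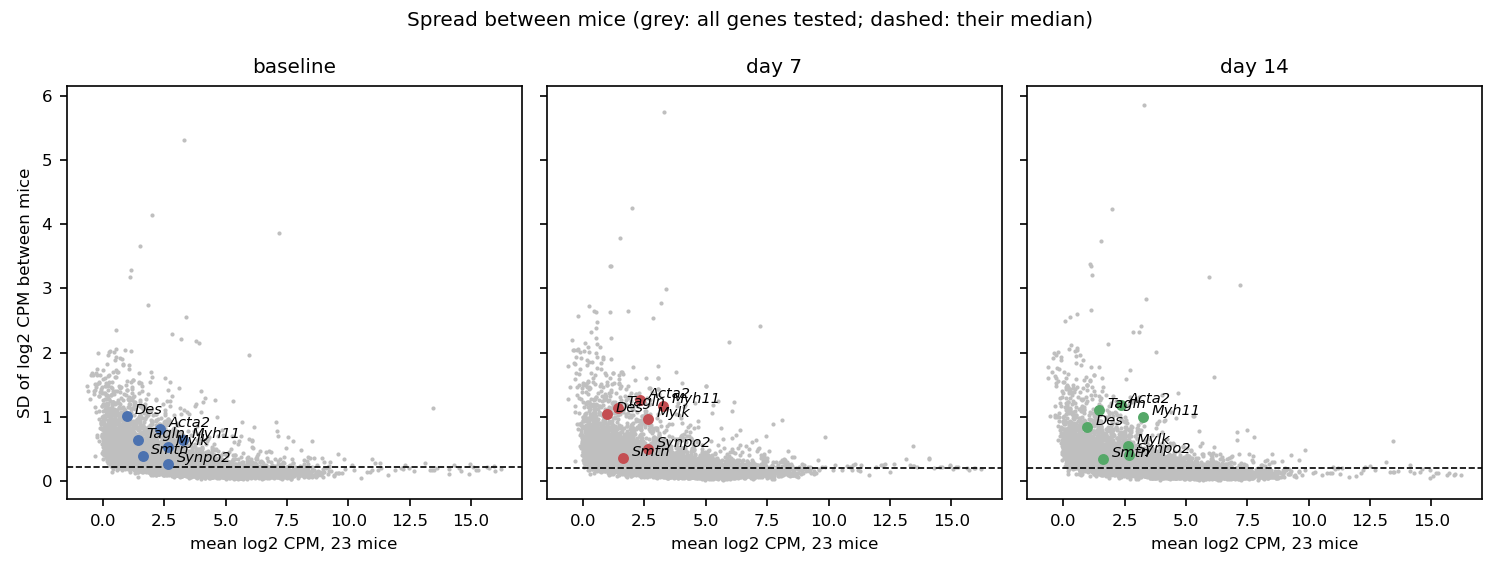
SD of log2 CPM between the mice of a group (vertical axis) against mean log2 CPM over 23 mice (horizontal axis) for all 12195 genes tested (grey), with the 7 tested members in colour and the median of all genes as a dashed line. The members lie above the dashed line in each panel, *Synpo2* least so at baseline.

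Mice 5, 10, 15 and 19 held the highest values. They were the highest 4 of all 23 for 6 of the 10 members (*Acta2*, *Myh11*, *Tagln*, *Des*, *Lmod1* and *Mylk*). For *Actg2* and *Cnn1*, mice 15, 19 and 10 were the highest in that order. The summed normalized counts of the 10 members were 609 in mouse 5, 816 in mouse 10, 1247 in mouse 15 and 932 in mouse 19. The next mouse, 21 at day 14, had 421, and the group medians were 254, 274 and 265. Without these mice the members had a median SD of 0.36 (baseline), 0.42 (day 7) and 0.61 (day 14), beside 0.22, 0.19 and 0.20 over all genes. No label gives a batch, so the mice could not be compared within batches.

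**Figure D4:**
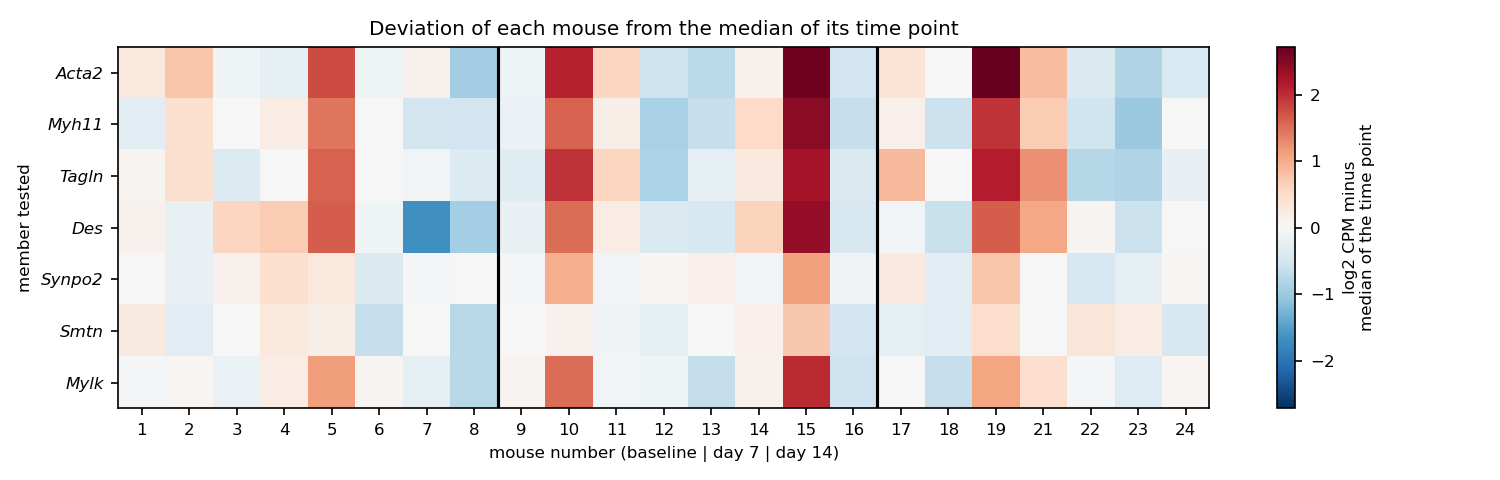
Log2 CPM of the 7 tested members in each mouse (columns) minus the median of its time point (red above, blue below, in log2 units). The columns of mice 5, 10, 15 and 19 are red for *Acta2*, *Myh11*, *Tagln*, *Des* and *Mylk*, and paler for *Synpo2* and *Smtn*.

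The members varied together within time points. Between pairs of the 7 tested members, Pearson's r of log2 CPM with time point and sex removed ran from 0.44 to 0.96 over 23 mice, with a median of 0.80 over 21 pairs. These values describe libraries that share depth and scaling. Without mice 5, 10, 15 and 19 they ran from -0.12 to 0.86 with a median of 0.32. The slope on *Myh11* is the change in log2 level of a gene for each log2 unit of *Myh11* between mice of the same time point. It passed the test for 5 of the 6 other members, beside 9.78% of 12194 genes with a positive and 5.97% with a negative slope. It was 1.14 ± 0.057 (SE) for *Acta2*, 1.02 ± 0.070 for *Tagln*, 0.98 ± 0.087 for *Des*, 0.73 ± 0.054 for *Mylk* and 0.36 ± 0.054 for *Synpo2*. The edgeR adjusted p of these 5 was at most 0.000123, and *Smtn* missed the threshold with a slope of 0.21 ± 0.075 (adjusted p = 0.0562). Without the 4 mice, *Acta2* (0.84) and *Tagln* (1.06) still passed and 18 of all genes did, while *Des* (1.04, edgeR adjusted p = 0.0760), *Mylk* (0.50, adjusted p = 0.107) and *Synpo2* (0.12, adjusted p = 0.828) did not. The correlation of *Acta2* with *Myh11* was r = 0.95 and rho = 0.84, and r was 0.91 without mice 15 and 19, the farthest in *Myh11*, and 0.77 without the 4.

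Among the 10 other genes most like the members, by r over 23 mice with the mean residual of the 7 tested members, were *Myl9* (0.92), *Flna* (0.90), *Adcy5* (0.90), *Reln* (0.88), *Tpm2* (0.88), *Dmpk* (0.88), *Ldlrad4* (0.88), *Adrbk2* (0.87) and *Kcna1* (0.87). *Myl9* is the regulatory light chain that the kinase of *Mylk* phosphorylates. Its normalized count ran from 13.6 through a median of 21.4 to 46.0 at baseline, from 19 through 26.3 to 119 at day 7, and from 17 through 27.8 to 82.2 at day 14. Mice 5, 15 and 19 were the highest of their groups, which the choice of genes by this correlation favours, and without the 4 mice r was 0.52 for *Myl9* and 0.51 for *Tpm2*. *Tpm2*, beta-tropomyosin of the thin filament, reached 23.6, 81.9 and 65.6 in the same 3 mice, above medians of 13, 18.8 and 16.3. *Flna*, the actin cross-linker filamin A, was highest in mice 5 (1082), 10 (1408) and 21 (932).

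Other genes of the contractile machinery were taken from lists. Beside the counts given below for each list, 3.82% of all genes were called higher and 1.31% lower at day 7, and 0.787% were called at day 14. A slope on *Myh11* passed the test for 9.78% of all genes with a positive and 5.97% with a negative sign. Of 25 further genes of the contractile apparatus and cytoskeleton, 22 were tested, and at day 7 *Pdlim7*, a PDZ and LIM protein of actin stress fibres, rose (1.42 ± 0.36, edgeR adjusted p = 0.00561) and none fell. *Tpm2* (1.01 ± 0.46, edgeR adjusted p = 0.135) and *Itga8*, an integrin chain of mesenchymal and smooth muscle cells (0.99 ± 0.61, adjusted p = 0.275), did not pass. The median of the 22 was 0.23, beside 0.022 over all genes, and at day 14 none was called. Of these 22 genes 10 had a positive slope on *Myh11* that passed the test. The largest were 0.96 ± 0.12 for *Itga8*, 0.87 ± 0.16 for *Cnn2* (calponin 2) and 0.78 ± 0.076 for *Tpm2*.

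Of 22 genes that control contraction, 16 were tested. *Pde5a*, the phosphodiesterase that breaks down cyclic GMP, rose at day 7 (0.88 ± 0.19, edgeR adjusted p = 0.00190) and none fell. *Kcnma1*, the pore of a calcium-activated potassium channel, differed by 0.68 ± 0.30 (edgeR adjusted p = 0.115), and *Mrvi1*, a target of cyclic GMP-dependent kinase, by -0.50 ± 0.31 (adjusted p = 0.270). None of the 16 was called at day 14. A positive slope on *Myh11* passed the test for 6, among them *Itpr1*, the calcium release channel (0.23 ± 0.036), and *Cacna1c*, the L-type calcium channel (0.31 ± 0.074). Of 12 transcription factors and cofactors of smooth muscle, 9 were tested and *Prrx1*, a mesenchymal homeobox factor, rose at day 7 (0.64 ± 0.16, edgeR adjusted p = 0.00518). *Mef2c* differed by 0.42 ± 0.43 (edgeR adjusted p = 0.524), and *Tead1*, at -0.33 ± 0.11 (adjusted p = 0.0342), was short of the fold threshold. *Mef2c* (0.65 ± 0.11) and *Mkl1* (0.31 ± 0.080) were the 2 of 9 with a positive slope on *Myh11* that passed the test. *Myocd*, which encodes myocardin, the cofactor that defines smooth muscle transcription, had at most 5 counts in any mouse.

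Markers of other cell types were measured beside the members, and their part in the members' spread was not tested. All 10 fibroblast markers rose at day 7, among them *Col3a1* (1.10 ± 0.17, edgeR adjusted p = 0.000153) and *Dcn* (0.78 ± 0.14, adjusted p = 0.000481). The slope on *Myh11* passed the test for 1 of these 10, and their median slope was 0.097, beside -0.0076 over all genes. Their summed normalized counts ranged over 3121 to 6136 in baseline mice, over 5965 to 11115 in day 7 mice and over 4981 to 7345 in day 14 mice. Of 8 tested pericyte markers 4 had a positive slope that passed the test. These were *Abcc9* (0.45 ± 0.066, edgeR adjusted p = 0.000118), *Notch3* (0.32 ± 0.079, adjusted p = 0.00588), *Mcam* (0.29 ± 0.080, adjusted p = 0.0143) and *Cspg4* (0.33 ± 0.11, adjusted p = 0.0410). The most abundant, *Vtn* (-0.031 ± 0.063) and *Rgs5* (0.035 ± 0.052), were not among the 4. The pericyte sums ran from 777 to 1272, 620.2 to 890.4 and 856 to 1162 in the 3 groups. *Vtn*, with a median normalized count of 483 over all mice, made up much of these sums. The pericyte marker *Notch3* fell at day 7.

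Endothelial cells line the vessels that smooth muscle surrounds. Of 8 endothelial markers 6 had a positive slope on *Myh11* that passed the test. *Pecam1* (0.33 ± 0.058, edgeR adjusted p = 0.00105) and *Kdr* (0.12 ± 0.035, adjusted p = 0.0168) were among them. The endothelial sums spanned 674 to 1130 in baseline mice, 521 to 1021 in day 7 mice and 729 to 1029 in day 14 mice, with 1130 in mouse 5, 1021 in mouse 10, 797 in mouse 15 and 865 in mouse 19. All 6 tested adipocyte markers had a positive slope, as for *Fabp4* (0.55 ± 0.096, edgeR adjusted p = 0.00123) and *Cfd* (1.51 ± 0.34, adjusted p = 0.00551). The adipocyte sums were 940.2, 1887, 812 and 504 in mice 5, 10, 15 and 19 and 1036 in mouse 21, above group medians of 342, 299.7 and 226; the groups ran from 127 to 940.2, 110.0 to 1887 and 137 to 1036.

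A list of 10 lymphocyte markers was added after the values were seen. Its summed normalized counts were 648, 1106, 616 and 179 in mice 5, 10, 15 and 19 and 667 in mouse 21, above group medians of 31.1, 47.3 and 26.9. The groups ran from 3.02 to 648, 6.69 to 1106 and 6.11 to 667, and the most abundant markers were the B cell genes *Ms4a1* and *Cd79b*. The order differed from that of the members: mouse 10 led the lymphocyte and adipocyte sums, mouse 15 the members, and mouse 19 had fewer lymphocyte counts than mouse 21 but more than 2 times its member counts. Mice 5 and 10 also had the most total counts (8868360 and 9567446) and the most symbols detected (15914 and 16653) of their groups.

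**Figure D5:**
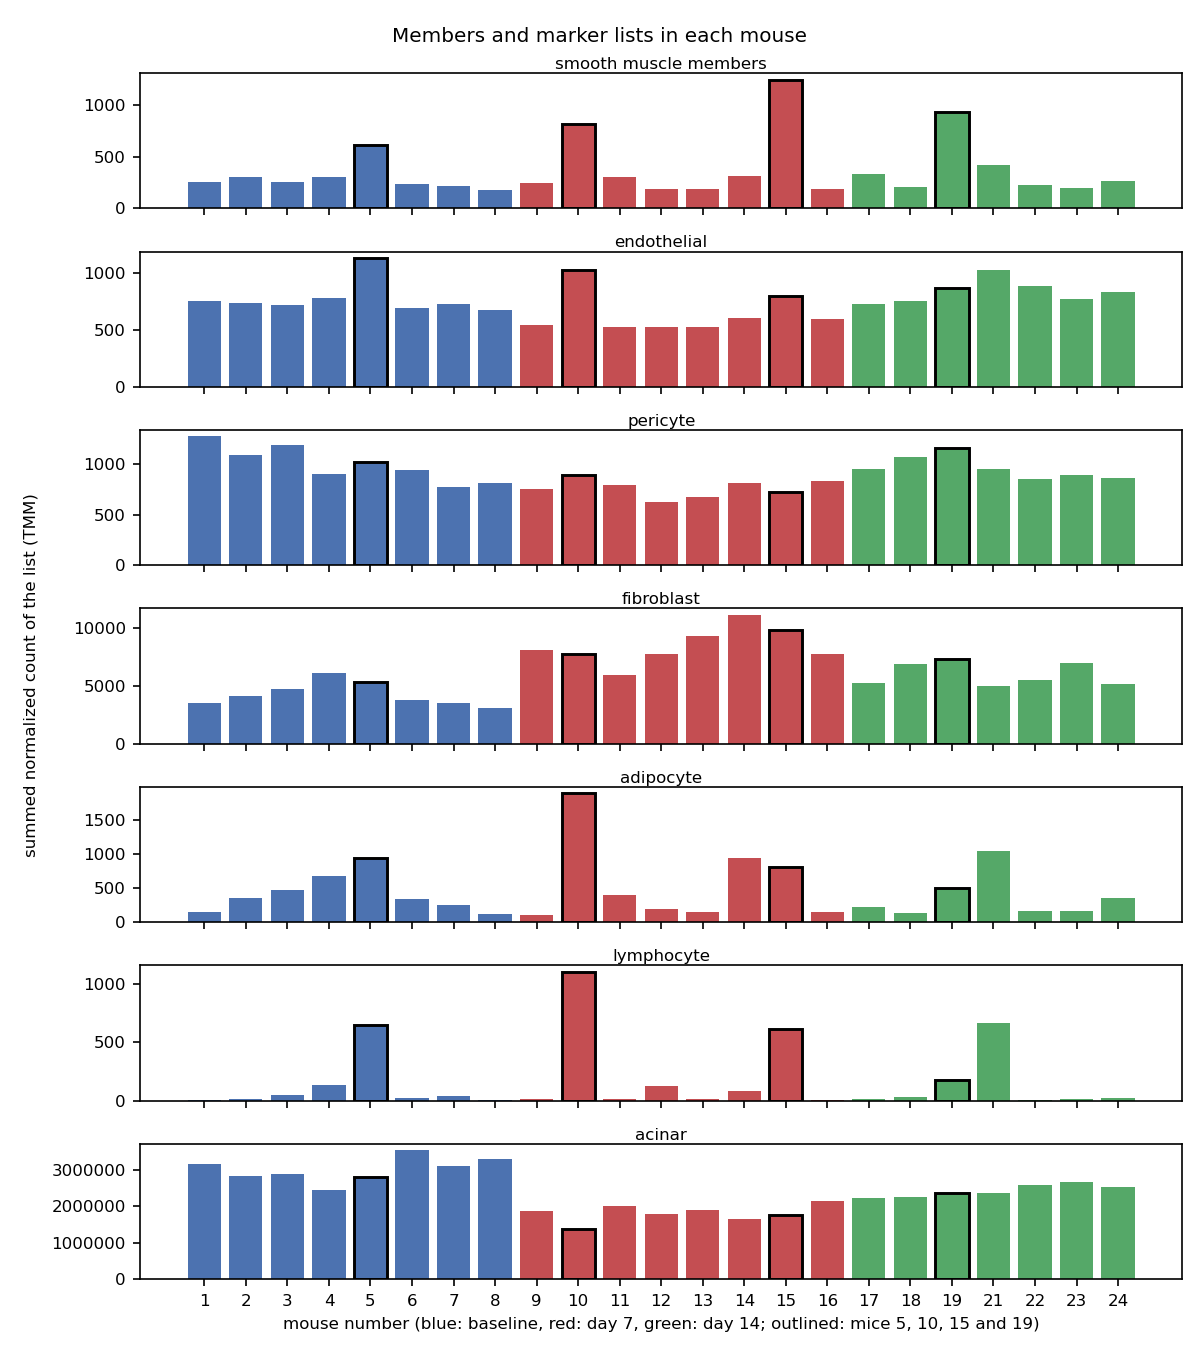
Summed normalized counts (vertical axes, TMM scaling) of the members and of 6 marker lists in each mouse (horizontal axis; blue baseline, red day 7, green day 14; mice 5, 10, 15 and 19 outlined). The members, the adipocyte and the lymphocyte markers are high in the outlined mice, the latter 2 also in mouse 21 and the adipocyte markers in mouse 14. By group median, fibroblast sums are highest and acinar sums lowest at day 7, with ranges that overlap between some groups. Mouse 10 has the lowest acinar sum, and mouse 19 the highest fibroblast sum of day 14.

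Markers of gut, enteric and skeletal muscle tissue were measured as well. Of 14 intestinal epithelium markers 4 were not analysed here. *Fabp2*, highest in mouse 19, *Lct*, *Muc2* and *Tff3* had at most 3 counts in any mouse. *Apoa4* had 5 counts in mouse 19 and 0 in the other 22 mice. *Cdh17* had at most 6 counts (mouse 10), *Lgals4* 12 (mouse 12), *Vil1* 19 (mouse 15) and *Krt20* 23 (mouse 11). *Mttp*, the only one tested, had a slope of -0.050 ± 0.075 and the highest median normalized count of the list (36.8 over the 23 mice). The intestinal sums ran from 40.8 to 63.1, 39.7 to 72.3 and 36.6 to 72 in the 3 groups. Of the enteric neuron, glia and interstitial cell markers, 5 of 13 were tested and 1 had a positive slope that passed the test. The most abundant, *Ano1* (-0.088 ± 0.032) and *Kit* (-0.14 ± 0.056), did not pass. *Chat* and *Gfap* had at most 1 count. The sums of this list ran from 691 to 1004, 679.5 to 920.0 and 711 to 888 in the 3 groups, with 691, 719, 679.5 and 827 in mice 5, 10, 15 and 19. The skeletal muscle genes *Acta1* and *Myh1* had at most 2 counts in any mouse, and *Ckm* at most 13. The giant sarcomere protein gene *Ttn*, with 64 to 454 counts, was the only skeletal marker tested and had a slope of 0.45 ± 0.086 (edgeR adjusted p = 0.00169). The skeletal sums were 380.1, 310.5, 242 and 177 in mice 5, 10, 15 and 19 and 236 in mouse 21, above group medians of 182, 132 and 119. *Ttn* made up most of these sums, with a normalized count of 366 in mouse 5 and a median of 148 over the 23 mice. None of 6 mesothelial or 7 duct markers had a slope past the threshold, *Krt19* (0.00053 ± 0.078), *Upk3b* (0.032 ± 0.14), *Spp1* (-0.12 ± 0.053) and *Muc1* (-0.10 ± 0.041) included. The acinar markers, whose enzymes make up much of the tissue's RNA, had a negative slope that passed the test in 3 of 9. Their median slope was -0.082, beside -0.0076 over all genes. Of the 9, 4 fell at day 7, such as *Pnlip* (-0.88 ± 0.082, edgeR adjusted p = 4.51e-08). *Cel*, an abundant lipase of the same list, passed the adjusted p (-0.58 ± 0.080, edgeR adjusted p = 1.06e-05) but was short of the fold threshold.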

How the data were processed

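The deposited values are counts of fragments per gene symbol. Per the labels and the study's methods, the authors depleted ribosomal RNA from total RNA of the head of the pancreas, made stranded libraries, and sequenced them in pairs of 75 bases; quality control used FastQC and trimming Trim Galore with cutadapt. They then aligned the reads to mm10 with STAR 2.5.2a and counted with featureCounts. Total counts per mouse were 7059890 to 9567446. A floor of 3 counts is 3.14e-05% to 4.25e-05% of a library and covers counting error only. No 2 of the 23 libraries held identical counts. Nothing in the labels says more of how mice relate, so p-values measure the spread between these mice.

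Low genes were removed by filterByExpr. The model was fitted by edgeR 4.0.16 under R 4.3.3 (with limma 3.58.1) after TMM scaling, by robust glmQLFit and glmQLFTest, in 1 fit of 23 mice with time point and sex. The interactions and the slopes on *Myh11* came from separate fits of the same mice. P-values are two-sided and were Benjamini-Hochberg adjusted over all genes tested. Calls needed both an adjusted p no higher than 0.05 and a change of 1.5-fold or more; interactions and slopes by adjusted p alone. The SE is the log2 difference divided by the square root of F and so restates the test. The members and lists were chosen with earlier results of these data known. Named from the lists were the 3 genes with the largest day 7 difference, the 2 most abundant markers, and, with an exception not reported here, the 10 genes most like the members; other genes named were chosen after their values were seen. Alternatives were DESeq2 1.42.0, other scalings and filters, other covariates and leaving out mice; the mapping rates used as a covariate come from the study's supplementary statistics. The fits were tested on simulated data. Figures were drawn with matplotlib 3.10.9 in Python 3.11.15.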

Additional observations from a re-analysis of the deposited data

Results flagged for a closer look

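In 13 of the 30 groups formed by a member and a time point, the highest mouse stood apart from the others of its group by Dixon's test. At baseline it was always mouse 5, with normalized counts of 102 for *Acta2*, 192 for *Myh11*, 53.5 for *Tagln*, 46.0 for *Des*, 10.7 for *Lmod1* and 101 for *Mylk*; the next baseline mouse had 49.1, 93.1, 22.6, 22.5, 6.29 and 51.5. At day 7 it was mouse 15, with 33.2 for *Actg2*, 73.0 for *Des* and 38.9 for *Smtn*, against 14.3, 39.1 and 25.1 in the next. At day 14 it was mouse 19, with 209.7 for *Acta2*, 17.5 for *Actg2*, 296 for *Myh11* and 19.4 for *Cnn1*, against 56.0, 5.84, 121 and 3.90. The members were measured in the same libraries, so the 13 are not independent of each other.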

How the results depend on the processing

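The count of members called stayed at 0 in the 3 comparisons of time points under every alternative run except total count scaling, which called 2 at day 7. Between the sexes, where DESeq2, total count scaling, leaving out each mouse and leaving out mice 5, 10, 15 and 19 were run, it also stayed at 0. Under total count scaling 3727, 449 and 477 of all genes were called at day 7, at day 14 and from day 7 to day 14, and the split of higher to lower calls went from 466 and 160 to 3706 and 21, from 85 and 11 to 441 and 8, and from 25 and 21 to 14 and 463. It turned *Synpo2* (0.35) and *Smtn* (0.36) at day 7, *Synpo2* from day 7 to day 14 (-0.065) and *Mylk* between the sexes (-0.016). Leaving the 20 most abundant genes out of the totals gave 635 higher and 106 lower at day 7 and 13 and 31 from day 7 to day 14. With at least 10 counts in every mouse, which tests fewer genes, 348 were called at day 7 and 30 from day 7 to day 14. With no fold threshold 2264 were called at day 7 (1081 higher), 192 at day 14 (128 higher) and 157 between the days (123 higher).

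With the mapping rate as a covariate 105 genes were called at day 7 and 5 at day 14. The members turned to -0.84 (*Acta2*), -1.10 (*Myh11*), -1.07 (*Tagln*), -1.25 (*Des*) and -0.89 (*Mylk*) at day 7. At day 14 they turned to -0.87 (*Acta2*), -0.93 (*Myh11*), -0.79 (*Tagln*), -1.10 (*Des*), -0.45 (*Synpo2*) and -0.67 (*Mylk*), and between the days to 0.17 (*Myh11*), 0.28 (*Tagln*), 0.15 (*Des*) and 0.21 (*Mylk*). The cause was not tested.

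Without mice 5, 10, 15 and 19, an alternative chosen after seeing the data, the median SD was 0.36 at baseline and 0.42 at day 7, and 2 members and 18 genes varied with *Myh11*. The differences turned to -0.030 (*Myh11*), -0.13 (*Des*) and -0.065 (*Mylk*) at day 7, -0.012 (*Synpo2*) at day 14, 0.12 (*Myh11*), 0.35 (*Tagln*), 0.21 (*Des*) and 0.41 (*Mylk*) between the days, and -0.13 (*Des*) and -0.086 (*Mylk*) between the sexes.

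Leaving out each mouse in turn gave -0.17 to 0.86 for *Des* at day 7. At day 14 it gave -0.33 to 0.99 for *Acta2*, -0.30 to 0.65 for *Myh11*, -0.013 to 0.91 for *Tagln*, -0.46 to 0.47 for *Des* and -0.068 to 0.16 for *Synpo2*. Between the days it gave -1.47 to 0.0047 for *Acta2*, -0.93 to 0.24 for *Myh11*, -0.71 to 0.26 for *Tagln*, -0.83 to 0.20 for *Des* and -0.48 to 0.25 for *Mylk*, with 22 (without mouse 22) to 57 (without mouse 11) genes called, 23 without mouse 15 and 29 without mouse 24. Between the sexes it gave -0.85 to 0.18 for *Acta2*, -0.44 to 0.36 for *Myh11*, -0.54 to 0.15 for *Tagln*, -0.32 to 0.40 for *Des*, -0.13 to 0.049 for *Smtn* and -0.29 to 0.25 for *Mylk*. Most lowest and highest values came without mice 5, 15 or 19. The median SD at baseline was 0.36 (without mouse 5) to 0.69, and 1064 (without mouse 10) to 2261 genes varied with *Myh11*; without mouse 5 it was 1202. The slope of *Smtn* passed without mouse 1, 22 or 23 (edgeR adjusted p = 0.0441, 0.0360 and 0.0330). No paired analysis was possible because every mouse has its own number and was sampled once. The low counts of *Actg2*, *Cnn1* and *Lmod1* limit what can be said of them.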

Other observations

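Genes of lymph node stroma, a list added after the values were seen, were high in the same libraries. *Glycam1*, a sulphated ligand made by the high endothelial venules of lymph nodes and picked after its values were seen, had 42 counts in mouse 5, 626 in mouse 10, 59 in mouse 15, 180 in mouse 19 and 38 in mouse 21. Mice 4 and 14 had 1 count each and the other 16 mice had 0. The 8 genes of the list summed to normalized counts of 563 in mouse 5, 1221 in mouse 10, 595 in mouse 15, 414 in mouse 19 and 542 in mouse 21, above group medians of 99.2, 143 and 86.0. Of its 5 tested genes 3 had a positive slope on *Myh11* that passed the test, *Lyve1* among them (0.65 ± 0.14, edgeR adjusted p = 0.00462). The slope of *Prox1* did not pass (0.0061 ± 0.080, edgeR adjusted p = 0.976). Mouse 21 had more lymphocyte counts than mouse 19 but fewer than mouse 19 of all 10 members, so the order of the mice was not the same for these gene groups. The part of these genes in the members' spread was not tested.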
